A study of Mus musculus with 6 samples.

Results

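Cyclin E, its kinase CDK2, the CIP/KIP inhibitors of that kinase and the ubiquitin ligase subunit SKP2 were followed in cultured mouse vascular smooth muscle cells given TWEAK. They are 7 genes, chosen by symbol: Ccne1, Ccne2, Cdk2, Cdkn1a, Cdkn1b, Cdkn1c and Skp2. All 7 are among the 14927 genes of the deposited table. The cells came from the thoracic aorta of wild-type C57BL/6 mice and were used at passages 3 to 7. They reached confluence, spent 24 h in medium with 0.5% serum, and then received vehicle or 100 ng/mL recombinant TWEAK for 24 h in the same low serum. TWEAK belongs to the tumour necrosis factor family of cytokines and acts through the receptor Fn14. Total RNA was sequenced in 3 vehicle and 3 TWEAK libraries, whose column headers give experiment numbers 1 to 3, with 1 library of each group per number. The labels do not say whether the experiments came from separate animals. The p-values therefore measure how the response varied between these experiments, which may be technical, with variance borrowed in part from other genes.

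Cyclin E is the cyclin of late G1. It binds CDK2, and the active kinase phosphorylates the retinoblastoma family and replication proteins as cells enter S phase. The CIP/KIP proteins p21 (Cdkn1a), p27 (Cdkn1b) and p57 (Cdkn1c) bind cyclin-CDK2 complexes and hold them inactive. SKP2 is the F-box subunit of an SCF ubiquitin ligase that marks phosphorylated p27 for degradation. In the artery wall, p27 and p21 are known as brakes on smooth muscle cell division after injury. Much of this control acts on proteins, which were not measured here.

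Promoter windows show the DNA at the starts of genes that rose together, with Cdkn1b as a gene that did not pass. RefSeq windows on GRCm38.p6, from 250 bases before to 50 after each start, were matched for 5 of the 7 genes; Ccne2 and Cdkn1c had no entry, and Cdkn1a and Skp2 had 2 windows each, of which 1 of Skp2 is shown. Each is written 5′ to 3′ on the strand of its gene, and capitals mark matches to an E2F motif (TTTCCCGC, TTTGGCGC, TTTCGCGC or TTTGCCGC) or to a GC box (GGGCGG), on either strand.
Ccne1, chr7:38107441-38107740, minus strand: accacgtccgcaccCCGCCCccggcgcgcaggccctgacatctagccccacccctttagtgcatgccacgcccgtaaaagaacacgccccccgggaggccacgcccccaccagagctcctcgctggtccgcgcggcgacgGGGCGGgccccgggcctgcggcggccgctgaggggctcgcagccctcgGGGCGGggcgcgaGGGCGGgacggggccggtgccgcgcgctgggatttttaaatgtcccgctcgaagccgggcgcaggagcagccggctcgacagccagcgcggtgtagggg
Cdk2, chr10:128705002-128705301, minus strand: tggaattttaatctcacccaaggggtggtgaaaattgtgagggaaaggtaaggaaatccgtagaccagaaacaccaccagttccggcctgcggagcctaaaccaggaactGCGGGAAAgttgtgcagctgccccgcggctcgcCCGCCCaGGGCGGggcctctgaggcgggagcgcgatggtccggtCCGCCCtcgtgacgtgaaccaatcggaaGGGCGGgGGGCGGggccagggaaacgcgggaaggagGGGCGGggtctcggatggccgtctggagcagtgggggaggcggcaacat
Skp2, chr15:9140405-9140704, minus strand: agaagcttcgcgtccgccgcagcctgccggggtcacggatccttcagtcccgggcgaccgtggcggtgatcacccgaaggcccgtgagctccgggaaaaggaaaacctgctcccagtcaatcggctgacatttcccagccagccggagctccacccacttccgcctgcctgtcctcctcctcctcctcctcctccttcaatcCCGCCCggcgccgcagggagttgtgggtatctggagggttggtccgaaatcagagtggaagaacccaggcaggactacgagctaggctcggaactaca
Cdkn1b, chr6:134920151-134920450, plus strand: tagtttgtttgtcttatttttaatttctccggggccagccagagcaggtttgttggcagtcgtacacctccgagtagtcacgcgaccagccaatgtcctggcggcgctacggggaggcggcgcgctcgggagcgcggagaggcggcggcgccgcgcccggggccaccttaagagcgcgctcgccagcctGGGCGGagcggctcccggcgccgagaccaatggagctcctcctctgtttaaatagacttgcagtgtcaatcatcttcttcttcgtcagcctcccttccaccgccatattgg
The Cdk2 window held 1 E2F motif match, on the reverse strand and beginning 140 bases before the start, and 6 GC boxes. The Ccne1 window held 4 GC boxes, and the Skp2 window shown and the Cdkn1b window held 1 each. The second Skp2 window held no match, and the Cdkn1a windows held 0 and 2 GC boxes. Of all 32851 windows in the table, 2.26% held an E2F motif match and 35.7% a GC box. The motifs were allowed to overlap. A match is a description and not a binding site, and a window without a match says only that these letters are not in it.

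Reads over the listed genes ranged from 62632273 to 82118717 per library, and those of the 7 genes from 172 (Cdkn1c) to 15587 (Cdkn1a). Normalized counts are reads divided by 1 size factor per library. All 6 smooth muscle markers were present, with summed normalized counts of 307446 to 358464 in vehicle and 185018 to 259269 in TWEAK libraries (5 fell and Des rose; limma). Transcripts of marker genes of other cell types were also counted. The 7 macrophage markers summed to between 2916 and 50507 with vehicle and between 3178 and 49268 with TWEAK, highest in experiment 1 in both groups. The 6 endothelial markers summed to between 7069 and 48221 with vehicle and between 6325 and 42053 with TWEAK, highest in experiment 2 in both groups. No marker of either list passed the test between treatments. The 6 adventitial fibroblast markers summed to between 19795 and 44537 with vehicle and between 27969 and 64105 with TWEAK (2 rose, 1 fell). No marker was at 0 in any library, but neither was any other gene of the deposited table, so this does not show that a cell type was present. The part of other cell types in the results below was not tested. In bulk RNA, fewer cells of a type and less RNA per cell cannot be told apart.

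With TWEAK, both cyclin E genes, Cdk2 and Skp2 rose, and none of the 3 CIP/KIP inhibitor genes passed the test. Ccne2 rose most, 2.19-fold, followed by Skp2 at 1.64-fold, Ccne1 at 1.61-fold and Cdk2 at 1.31-fold. The inhibitor genes had log2 fold changes of -0.12 (Cdkn1a), -0.19 (Cdkn1b) and -0.27 (Cdkn1c). Thus 4 of the 7 genes were called at a Benjamini-Hochberg adjusted p under 0.05 in limma with the experiment as a block, all of them higher. Of all 14927 genes, 13.7% were called and 8.11% were called higher and 5.55% lower. The direction was the same in all 3 experiments for 6 of the 7, Cdkn1c being the exception, and for 55.2% of all genes. The comparison asks what TWEAK changes in these cells, and fold changes below are ratios of normalized count + 1, which understates the change of low genes.

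**Figure D1:**
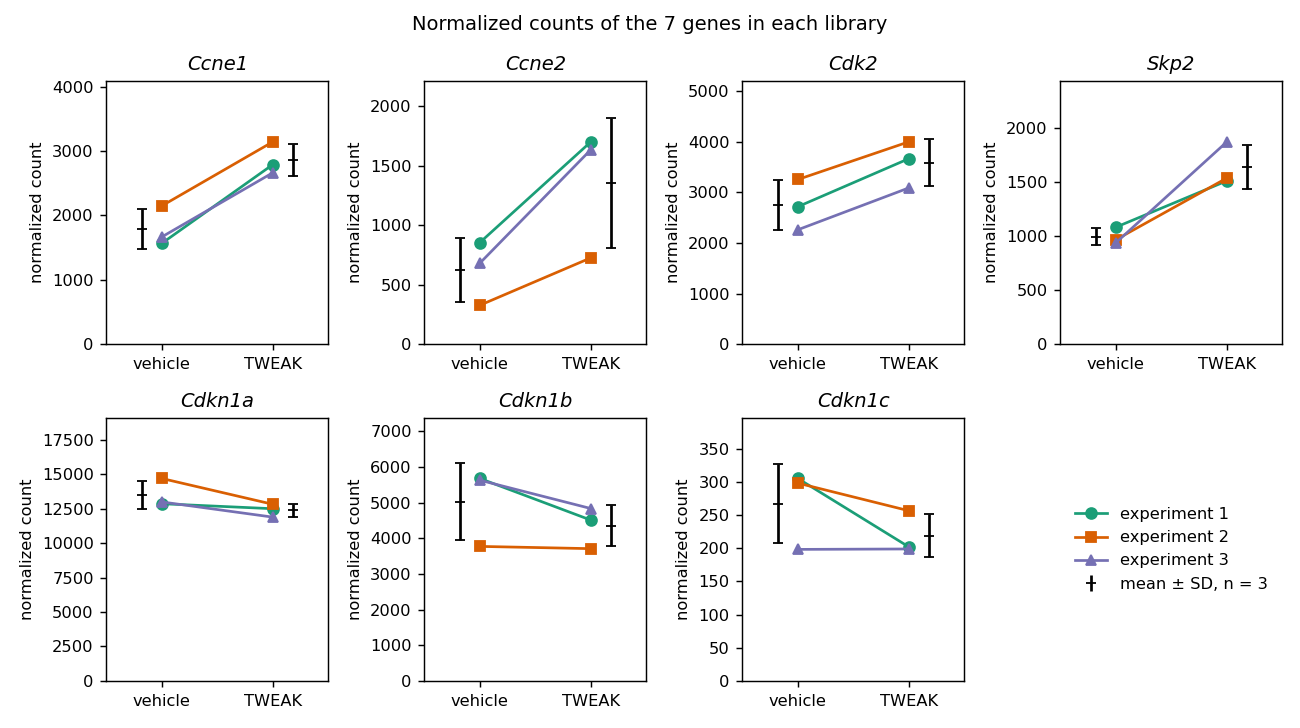
Normalized counts (vertical axes, each starting at 0) of the 7 genes with vehicle and TWEAK. Coloured points joined by lines are the libraries of 1 experiment, and black bars are the group mean ± SD (n = 3). Every line of Ccne1, Ccne2, Cdk2 and Skp2 goes up, and the experiment 2 line of Ccne2 runs below the others, at 327 with vehicle and 726 with TWEAK.

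Ccne1 encodes cyclin E1. Its normalized counts were 1566, 2148 and 1666 in the vehicle libraries of experiments 1, 2 and 3, and 2790, 3143 and 2663 in the TWEAK libraries. The groups did not overlap, as for 16% of all genes in either direction and 8.6% with TWEAK higher. The means were 1794 ± 311 and 2865 ± 249 (SD, n = 3), a log2 fold change of 0.69 (SE 0.08, 95% interval 0.48 to 0.90, limma adjusted p = 0.00771). The rise was largest in experiment 1, at 0.83 on the log2 scale, and was 0.55 in experiment 2 and 0.68 in experiment 3.

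Ccne2 encodes cyclin E2, the second E-type cyclin. Its normalized counts were 854, 327 and 681 with vehicle and 1701, 726 and 1635 with TWEAK in experiments 1, 2 and 3. The groups overlapped, because the TWEAK library of experiment 2 was below the vehicle library of experiment 1, yet within each experiment TWEAK was higher. The log2 ratios were 0.99, 1.15 and 1.26, and the fitted log2 fold change was 1.13 (SE 0.10, 95% interval 0.89 to 1.37, limma adjusted p = 0.00382). Its size was larger than that of 96.3% of all genes. In the annotation, Ccne2 shares 609 exonic bases with Ints8 on the opposite strand. The sources used here do not say how strand entered the counting, so reads of this pair may have been mixed. Ints8 itself had a log2 fold change of 0.19 (SE 0.16, limma adjusted p = 0.466).

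The log2 ratio of Ccne2 to Ccne1 increased with TWEAK by 0.16, 0.60 and 0.59 in experiments 1, 2 and 3, a mean of 0.45 ± 0.25 (SD, n = 3 pairs). The two-sided exact sign-flip test gave p = 0.25, the smallest that 3 pairs allow, so a difference in response between the cyclin E genes could not be established. After a correction for GC content and exon length the log2 fold changes were 0.91 for Ccne2 and 0.72 for Ccne1, against 1.13 and 0.69 before. Per kilobase of exon, Ccne1 was the more abundant in every library. Ccne2 made up 25.4%, 8.69% and 20.3% of the summed cyclin E level per kilobase with vehicle, and 27.6%, 12.6% and 27.7% with TWEAK.

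Cdk2 encodes the kinase that E-type cyclins activate. Its normalized counts were 2719, 3256 and 2263 with vehicle and 3669, 4002 and 3091 with TWEAK. The groups overlapped, since the TWEAK library of experiment 3 lay below the vehicle library of experiment 2, and the within-experiment log2 ratios were 0.43, 0.30 and 0.45. The fitted log2 fold change was 0.39 (SE 0.07, 95% interval 0.21 to 0.57, limma adjusted p = 0.0249). Its annotated exons share 34 bases with Pmel on the opposite strand, which averaged 90.3 ± 18.4 normalized counts with vehicle (SD, n = 3).

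Skp2 had 1080, 965 and 937 normalized counts with vehicle and 1509, 1535 and 1869 with TWEAK. The groups did not overlap, as for 8.6% of all genes with TWEAK higher, and the vehicle libraries lay close together. The means were 994 ± 76.2 and 1637 ± 201 (SD, n = 3), and the log2 fold change was 0.72 (SE 0.12, 95% interval 0.41 to 1.02, limma adjusted p = 0.0203). The log2 ratio was 0.48 in experiment 1, 0.67 in experiment 2 and 1.00 in experiment 3.

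Leaving out an experiment changed 3 of these 4 calls. Without experiment 1 the limma adjusted p was 0.0565 for Ccne1, 0.127 for Cdk2 and 0.0591 for Skp2, and without experiment 3 it was 0.0516, 0.218 and 0.0987. Ccne2 passed without any 1 of the experiments (adjusted p from 3.67e-09 to 0.0356), and all 4 passed without experiment 2. Each fit with an experiment left out held 2 pairs, so much of the variance behind its p-values was borrowed from other genes. Without the block none of the 7 passed; the adjusted p was 0.201 for Ccne1, 0.551 for Ccne2, 0.593 for Cdk2 and 0.153 for Skp2, and 3 genes passed in all, 0.0201% of those tested. In the authors' deposited table, where 18.1% of genes have an adjusted p under 0.05, the adjusted p is 3.4e-07 for Ccne1, 9.34e-15 for Ccne2, 0.00393 for Cdk2 and 1.69e-05 for Skp2.

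**Figure D2:**
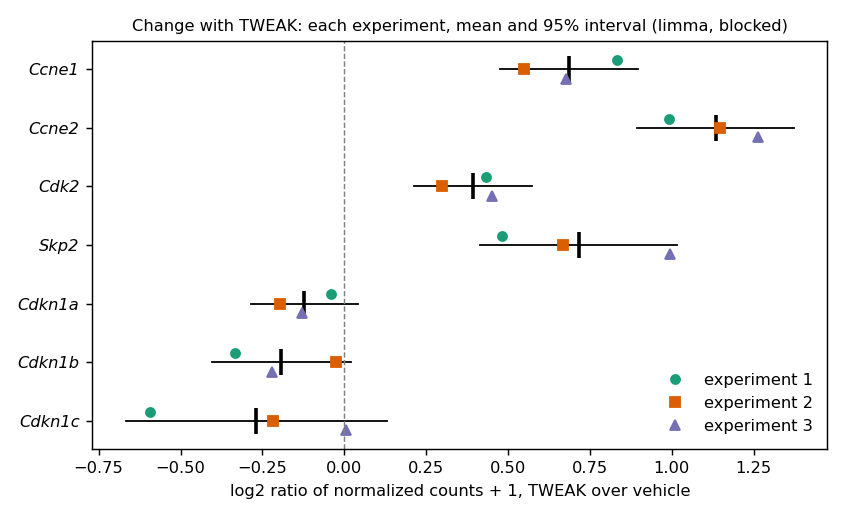
Log2 ratio of TWEAK over vehicle (horizontal axis) for each gene. Coloured points are experiments 1 to 3, and the black tick and line are the limma estimate and its 95% interval with the experiment as a block. The intervals of Ccne1, Ccne2, Cdk2 and Skp2 lie above 0, and those of the CIP/KIP genes include 0.

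Cdkn1a encodes p21, a transcriptional target of p53. Its normalized counts were 12865, 14699 and 12994 with vehicle and 12503, 12823 and 11892 with TWEAK. All TWEAK libraries lay just below all vehicle libraries, as for 7.42% of all genes, but the steps were small, at -0.04, -0.20 and -0.13 on the log2 scale. The log2 fold change of -0.12 (SE 0.07, 95% interval -0.29 to 0.04) did not pass limma (adjusted p = 0.271).

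Cdkn1b encodes p27, a substrate of SKP2. Its normalized counts were 5674, 3770 and 5626 with vehicle and 4507, 3707 and 4831 with TWEAK. The groups overlapped, and both libraries of experiment 2 were below all the others. The within-experiment log2 ratios were -0.33, -0.02 and -0.22, and the log2 fold change of -0.19 (SE 0.09, 95% interval -0.41 to 0.02) did not pass limma (adjusted p = 0.200). Without experiment 2 it was -0.28 and passed (adjusted p = 0.00460), and after a correction for GC content and exon length it was -0.35 and passed (adjusted p = 0.00710).

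Cdkn1c encodes p57, which in mice is expressed from the maternal allele of an imprinted cluster. It had the fewest reads of the 7, with 305, 298 and 198 normalized counts with vehicle and 202, 256 and 199 with TWEAK. The groups overlapped and the direction differed between experiments, with log2 ratios of -0.59, -0.22 and 0.0047. The log2 fold change of -0.27 had the widest interval of the 7 genes, -0.67 to 0.13 (SE 0.16, limma adjusted p = 0.314). These intervals still include a fall to 0.820 of the vehicle level for Cdkn1a, 0.755 for Cdkn1b and 0.629 for Cdkn1c, so an absence of change was not shown. The adjusted p in the authors' deposited table is 0.491 for Cdkn1a, 0.290 for Cdkn1b and 0.447 for Cdkn1c. Exonic bases of Cdkn1a (273) and Cdkn1c (625) are shared with unlisted opposite-strand transcripts of the annotation.

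Levels of different genes were compared per kilobase of annotated exon. Cdkn1a stood first in every library, at 4974 ± 377 normalized counts per kilobase with vehicle and 4564 ± 174 with TWEAK (SD, n = 3). With vehicle it was followed by Cdk2 (1139 ± 206), Cdkn1b (1104 ± 238) and Ccne1 (897 ± 156), whose ranges of mean ± SD overlapped. Cdk2 was above Ccne1 in every vehicle library, while the place of Cdkn1b changed between libraries. Ccne2 (194 ± 83.9), Skp2 (156 ± 11.9) and Cdkn1c (138 ± 30.8) came last, and their ranges overlapped too. With TWEAK, Cdk2 (1488 ± 191) and Ccne1 (1433 ± 124) were both above Cdkn1b (955 ± 127), and in each of the 3 TWEAK libraries both exceeded Cdkn1b. That order depends on the lengths: before division the TWEAK means were 4348 for Cdkn1b, 3587 for Cdk2 and 2865 for Ccne1. The lengths take in all annotated exons of a gene, and which of them these cells use was not measured.

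Cdkn1a supplied 77.1% to 84.6% of the summed CIP/KIP level per kilobase, over all 6 libraries. The summed cyclin E level per kilobase was 1050, 1176 and 1046 with vehicle and 1927, 1798 and 1843 with TWEAK in experiments 1, 2 and 3. Within each group its range was narrower than that of Ccne1 or Ccne2 alone; in experiment 2 Ccne1 was highest and Ccne2 lowest. The summed CIP/KIP level per kilobase was 6137, 6390 and 6119 with vehicle and 5694, 5664 and 5539 with TWEAK. The ratio of the CIP/KIP sum to the cyclin E sum was 5.84, 5.43 and 5.85 with vehicle and 2.96, 3.15 and 3.01 with TWEAK, so the groups did not overlap. The ratio of Skp2 to Cdkn1b per kilobase was 0.136, 0.182 and 0.119 with vehicle and 0.239, 0.295 and 0.276 with TWEAK, also without overlap. These sums and ratios are descriptions of transcript levels, given without a test since the genes were chosen with results known. They depend on the same exon lengths, and no ratios of other genes were taken for comparison.

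**Figure D3:**
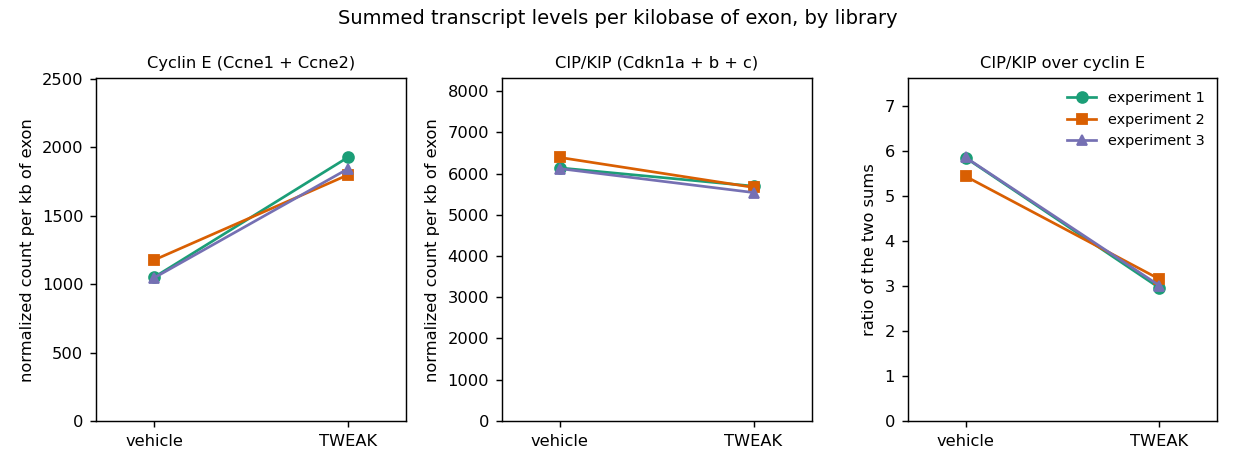
Summed normalized counts per kilobase of exon for the cyclin E genes (left) and the CIP/KIP genes (middle), and the ratio of CIP/KIP to cyclin E (right), all from 0. Each line joins the vehicle and TWEAK libraries of 1 experiment. The ratio lies between 5.43 and 5.85 with vehicle and between 2.96 and 3.15 with TWEAK.

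The experiments differed in level, over vehicle and TWEAK libraries together. In the blocked limma fit Ccne2 (adjusted p = 0.00243), Cdk2 (0.0245) and Cdkn1b (0.0244) differed among experiments, as did 48.6% of all genes. Ccne1 (0.0735), Cdkn1c (0.176), Cdkn1a (0.311) and Skp2 (0.754) did not pass. Experiment 2 was the low one for Ccne2 and Cdkn1b and the high one for Ccne1 and Cdk2. It also had the highest endothelial marker sum in both groups and the lowest Mki67, with 2047 normalized counts with vehicle against 13527 and 8437 in experiments 1 and 3. Mki67 encodes the Ki-67 proliferation antigen. Other proliferation genes did not share 1 order of experiments with vehicle. Top2a was also lowest in experiment 2 (3989), but Cdk1 was highest there (5627) and Ccnb1 lay between experiments 1 and 3 (3735). The Ccne2 transcript has a GC content of 36.3%, the lowest of the 7, and after the GC and length correction its log2 fold change was 0.91 (limma adjusted p = 0.00633). The part of cell makeup or GC content in the differences among experiments was not tested.

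Other genes of the pathway were read from 6 lists, and among their 58 measured genes 19 rose and none fell (Rb1 fell after the GC and length correction, and Cops5 and Ccnh without experiment 2). The proliferation reference genes Mki67, Top2a, Ccnb1 and Cdk1 rose in 4 of 4 cases, with log2 fold changes of 1.48, 1.37, 1.06 and 0.80. Counts called here and below are to be read beside the shares of all genes, 8.11% called higher and 5.55% lower. The median over the listed genes is given below beside 0.02, the median of all genes tested. The lists were chosen with earlier results of these data known.

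Of 11 measured genes that activate CDK2 or set its phosphorylation, 5 rose, none fell and 6 did not pass, with a median log2 fold change of 0.53. Ccna2, encoding cyclin A2, which takes over CDK2 in S phase, went from 3273 ± 325 to 7632 ± 256 normalized counts (SD, n = 3), a log2 fold change of 1.23. Cdc25a, encoding the phosphatase that removes inhibitory phosphates from CDK2, rose by 0.53 (SE 0.09, limma adjusted p = 0.0191), but did not pass without experiment 1 (0.118) or 3 (0.150). The inhibitory kinase genes Pkmyt1 (0.87) and Wee1 (0.76) rose too, and Cks2, a small CDK-binding subunit, rose by 0.75. Without experiment 1 the limma adjusted p was 0.0595 for Pkmyt1 and 0.0610 for both Wee1 and Cks2, and without experiment 3 it was 0.0599 for Pkmyt1. The Cks2 relative Cks1b, whose product helps SKP2 to bind p27, had 0.29 (SE 0.07, adjusted p = 0.0573). The CDK-activating kinase genes Cdk7, Ccnh and Mnat1 had 0.02, -0.02 and -0.17 and did not pass.

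Of 9 genes of the SCF ligase and of cyclin E turnover, 2 rose and 7 did not pass, with a median of 0.21. Neither riser is a core SCF gene. Fbxo5 (1.42) encodes the F-box protein EMI1, an inhibitor of the anaphase-promoting complex. Fzr1 (0.45) encodes that complex's activator CDH1, which directs the degradation of SKP2. Fzr1 normalized counts overlapped between groups, at 1758, 2384 and 1781 with vehicle and 2329, 2976 and 2721 with TWEAK, and its call was lost without experiment 1 (limma adjusted p = 0.125) or 3 (0.221). The core SCF genes Skp1a, Cul1 and Rbx1 had log2 fold changes of 0.16, 0.24 and -0.10, and Fbxw7, the F-box gene for cyclin E degradation, had 0.27 (SE 0.13, limma adjusted p = 0.217).

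None of 10 genes of p27 control passed, and their median was 0.03. Foxo3, a transcription factor gene whose product can induce p27, came nearest, at 0.27 (SE 0.07, limma adjusted p = 0.0683). The 2 most abundant of the list were Akt1, a kinase that phosphorylates p27 and FOXO factors, at -0.09, and Elavl1, an RNA-binding protein gene, at 0.16.

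Of 12 measured genes of p21 and p57 control, 3 rose and 9 did not pass, with a median of 0.20. Trp53, encoding p53, the transcription factor that induces p21, had a mean of 6207 ± 2008 in vehicle libraries and 10257 ± 1858 in TWEAK libraries (normalized counts, SD, n = 3), a rise of 0.76 on the log2 scale (SE 0.10, limma adjusted p = 0.0102; 0.0518 without experiment 3). Dtl, encoding the receptor of the ligase that degrades p21 in S phase, rose by 1.22 (SE 0.10). Pcna, the replication clamp that p21 binds, rose by 0.70 (SE 0.07). The long non-coding transcript Kcnq1ot1 of the imprinted Cdkn1c cluster had 0.41 (SE 0.17, adjusted p = 0.175).

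Of 12 CDK2 substrates and G1/S partners, 5 rose and 7 did not pass, with a median of 0.49. Mybl2 (1.22), a cell-cycle transcription factor, and the replication licensing genes Cdc6 (1.19), Cdt1 (1.02) and Mcm2 (0.89) rose. Rbl1, encoding the pocket protein p107, rose by 1.04, while its relatives Rb1 (-0.15) and Rbl2 (0.16) did not pass. E2f1, a transcription factor that pocket proteins hold in check, had -0.06 (SE 0.09, limma adjusted p = 0.646).

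**Figure D4:**
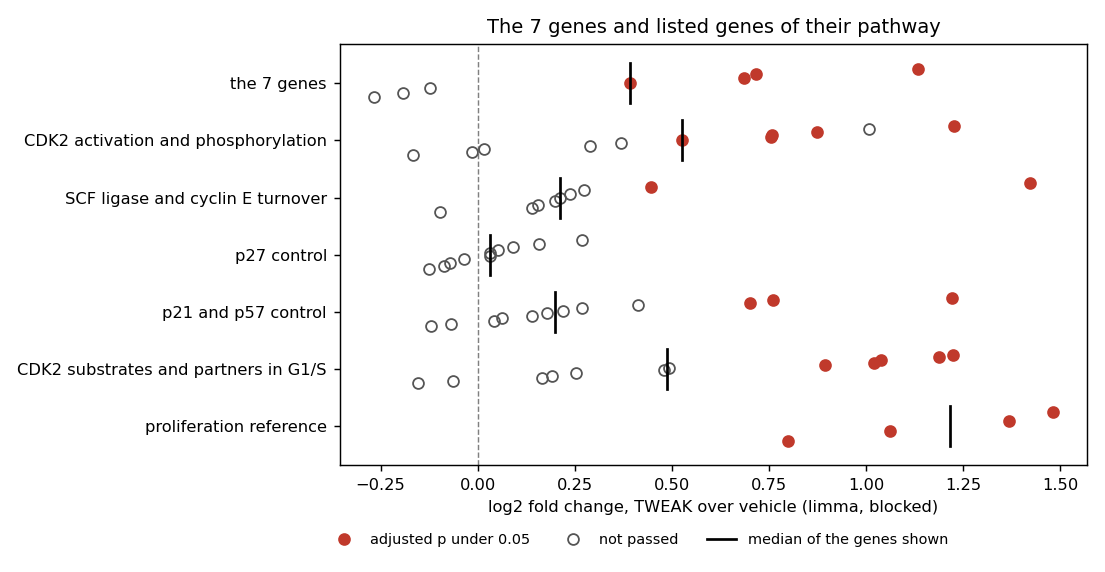
Log2 fold change with TWEAK (horizontal axis, blocked limma) of the 7 genes and of each measured listed gene. Filled points have an adjusted p under 0.05, open points did not pass, and the black bar is the median of each row. No filled point lies below 0, and the p27 control row has none.

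For likeness, each gene was compared with 11938 others over the 6 libraries by Pearson's r of log2 values, as a description. Such an r takes in differences between experiments as well as the change with TWEAK. The column headers do not say whether libraries of 1 experiment came from the same cells. Nearest to Ccne1 were Oip5 (r = 0.999), Plk1 (0.998), a mitotic kinase gene, and Cdca5 (0.997), and 237 genes had r over 0.95. Nearest to Ccne2 were Ttk (0.994), a spindle checkpoint kinase gene, Casc5 (0.994), a kinetochore gene, and Ncapg (0.993), a condensin subunit gene. These nearest genes rose more than the cyclin E genes themselves, by 1.10, 1.03 and 1.38 for the Ccne1 neighbours and 1.46, 1.40 and 1.32 for those of Ccne2. Those of Skp2 were Kcnq5 (0.992), Raph1 (0.990) and Ppp1r26 (0.988). Their log2 fold changes were 2.84, 0.76 and 0.45, and Ppp1r26 did not pass (limma adjusted p = 0.0976). For Cdk2 the nearest were Foxk2 (0.986), Rpa3 (0.984), a replication protein A subunit gene, and Cadm3 (0.984). With log2 fold changes of 0.12 and 0.27, Foxk2 and Rpa3 did not pass (limma adjusted p = 0.288 and 0.0932), while Cadm3 rose by 0.67. The CIP/KIP genes had other neighbours: Tmem259, Mtfr1l and Bet1l for Cdkn1a (0.995 to 0.996), Scrn3, Pgrmc1 and Tenm4 for Cdkn1b (0.992 to 0.996), and Slc46a3, Spon1 and Tatdn3 for Cdkn1c (0.971 to 0.986).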

How the data were processed

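RNA of 6 libraries was sequenced with a stranded Illumina total RNA kit, per the series' design text. DESeq2 was used, per the submitters' processing notes; the sources used here name no aligner, counter, strand setting, build or annotation. Per the file headers, the deposited table holds the authors' mean of normalized counts, log2 fold change with its standard error, Wald statistic (a score), p-value and adjusted p-value. For each library it has a further column with the authors' normalized counts, a signal. In the deposited columns 100% of values were whole multiples of 1 read (tolerance 0.01), so reads were recovered for count tests.

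The test was limma 3.58.1 (R 4.3.3; intensity trend, robust, two-sided) on log2(normalized count + 1); a minimum mean of 1 removed none of the 14927 genes, and p-values were adjusted over all of them, with 0.05 as the threshold. The experiment number was a block; the sources used here do not give the authors' model. DESeq2 1.42.0 with that block called 2702 genes on the recovered reads, 1618 of them higher, and the authors' deposited table calls 2702, 1611 of them higher. The headers pair the libraries by experiment, and deviations from the group means correlated across genes at 0.879, 0.868 and 0.734 within numbers (different numbers: -0.760 to -0.126). No 2 libraries were duplicates. The fit was tested on simulated data whose changes were all larger than those of Ccne1, Cdk2 and Skp2, so that test does not vouch for these calls. Exon lengths are unions over GENCODE M21 (GRCm38), used because the files give none. Alternatives included the unpaired fit, other pseudocounts, filters and scalings, edgeR 4.0.16, limma-voom, DESeq2 and leaving out each experiment; a GC and length correction was added after seeing the data. Listed genes were named where called, up to 6 per list by adjusted p, or the 2 most abundant; others are named for their roles, after their values were seen. The members and lists were chosen with earlier results of these data known.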

Additional observations from a re-analysis of the deposited data

How the results depend on the processing

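The blocked limma fit called 2039 genes, 1210 higher and 829 lower. Under 15 alternatives no direction of the 7 genes reversed. Those without the block, with other filters, or with neither trend nor robust estimation leave the log2 fold changes as they are. They could therefore not reverse a direction. Without the replicate block the log2 fold changes were the same (0.69 Ccne1, 1.13 Ccne2, 0.39 Cdk2, 0.72 Skp2) and none passed: 0 members, 0 listed genes and 3 genes in all (Mmp9, Ccl7 and Col6a4), 3 higher and 0 lower, with 1480 at an unadjusted p under 0.05. With neither trend nor robust estimation Cdk2 (0.39, adjusted p = 0.0653) and Skp2 (0.72, 0.0546) were lost, leaving 2 members and 1225 genes, 404 of them lower. Upper quartile scaling called 1392 genes lower. The GC and length correction called 3891 genes, 1854 higher and 2037 lower, 1 listed gene (Rb1) lower, and Cdkn1b at -0.35. Leaving out each experiment gave log2 fold changes of 0.61 to 0.75 for Ccne1, 1.07 to 1.20 for Ccne2, 0.36 to 0.44 for Cdk2, 0.58 to 0.83 for Skp2, -0.28 to -0.12 for Cdkn1b and -0.40 to -0.11 for Cdkn1c, 1 to 5 members called, and 666 to 3902 genes, 506 to 1930 higher and 154 to 1972 lower, with 15 to 23 listed genes higher and 0 to 2 lower (Cops5 and Ccnh, without experiment 2). Of the listed genes named as higher, Cdc25a, Fzr1 and Pkmyt1 lost their call without experiment 1 or 3, Cks2 and Wee1 without 1, Trp53 without 3, and Cdc25a (adjusted p = 0.0568) and Fzr1 (0.0715) with neither trend nor robust estimation. The cause of these changes was not tested. Which of the 7 passed was the same with edgeR, DESeq2, limma-voom, cyclic loess, the pseudocounts, the filters and upper quartile scaling. No scaling moved the median of all genes by over 0.1 on the log2 scale. With 172 to 316 reads per library, Cdkn1c is the member for which depth limits precision most.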
